A study of Mus musculus with 9 samples.

Results

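The genes described here encode 8 proteins that detect foreign or misplaced nucleic acid in the cytosol or in endosomes, or that pass such a signal on: Ifih1, Ddx58, Dhx58, Mavs, Tlr3, Sting1, Zbp1 and Eif2ak2. They were chosen by name as the rows of the deposited expression table that carry these symbols, 8 of 16299 genes, and the naming rule uses no measured value. Sting1 is the row of the gene also called Tmem173 and was matched through the RefSeq synonym. The table holds bulk RNA sequencing of mouse melanocytes, the pigment cells of skin, purified from epidermis by fluorescence-activated sorting, with 3 groups of 3 libraries. Knockout back libraries came from the back epidermis, and knockout tail libraries from the tail epidermis, of mice with the genotype Spry1flox/flox k14-Cre-ERT2. Control tail libraries came from the tail epidermis of Spry1flox/flox mice without the Cre transgene. All 3 groups therefore carry floxed Spry1, a gene for an inhibitor of receptor tyrosine kinase signalling. The keratin 14 promoter drives the tamoxifen-dependent Cre in basal keratinocytes, which are not the sorted cells. No control from the back was analysed here, so body site and genotype cannot be told apart in the comparison of knockout back with control tail. The labels name neither an inducing drug nor an age. They do not tell whether the 3 libraries of a group are separate animals, and the p-values below reflect no more than the scatter among libraries, which could be technical.

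Ifih1 (MDA5), Ddx58 (RIG-I) and Dhx58 (LGP2) are the RIG-I-like receptors, helicases that bind double-stranded RNA in the cytosol. MDA5 and RIG-I signal through Mavs, an adaptor on the outer membrane of mitochondria, which leads through the kinase TBK1 and the transcription factors IRF3 and IRF7 to type I interferon. Tlr3 recognises double-stranded RNA in endosomes, Sting1 is the reticulum adaptor activated by the cyclic dinucleotide made by the DNA sensor cGAS, Zbp1 binds left-handed Z-form nucleic acid and can start necroptosis, and Eif2ak2 (PKR) is a kinase that halts translation when it binds double-stranded RNA. Ifih1, Ddx58, Dhx58, Zbp1 and Eif2ak2 are themselves textbook interferon-induced genes, through a promoter sequence called the interferon-stimulated response element, whereas Mavs is generally described as constitutively expressed. Human melanocytes respond to synthetic double-stranded RNA.

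The promoters of 3 interferon-induced sensors and of Mavs are shown because the core of that element is found in the first group and not in the other. Sequences are from RefSeq (GRCm38.p6), run 5′ to 3′ on the strand of the gene, and hold 250 bases before and 50 bases after the annotated start. Promoters were read for 5 of the 8 genes (Ifih1, Ddx58, Mavs, Tlr3 and Eif2ak2). Dhx58 and Zbp1 had no matched entry, and the promoter of Sting1 was not analysed here. Capitals mark matches to the core letters GAAANNGAAA (TTTCNNTTTC on the other strand) and to the gamma-activated site letters TTCNNNGAA, which read the same on both strands.
Ifih1 (chr2:62646206-62646505, minus strand): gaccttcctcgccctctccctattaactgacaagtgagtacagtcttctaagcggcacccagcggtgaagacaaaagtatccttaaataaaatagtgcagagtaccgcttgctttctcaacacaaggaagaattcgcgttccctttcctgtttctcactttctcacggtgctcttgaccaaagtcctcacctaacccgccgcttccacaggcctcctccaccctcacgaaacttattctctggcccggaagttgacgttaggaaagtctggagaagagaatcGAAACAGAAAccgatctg
Ddx58 (chr4:40239776-40240075, minus strand): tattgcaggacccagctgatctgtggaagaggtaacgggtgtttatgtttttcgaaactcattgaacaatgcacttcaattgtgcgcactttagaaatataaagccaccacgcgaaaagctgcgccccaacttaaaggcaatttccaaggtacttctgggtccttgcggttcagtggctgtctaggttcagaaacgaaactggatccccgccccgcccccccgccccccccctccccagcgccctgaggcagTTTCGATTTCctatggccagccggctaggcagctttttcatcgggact
Eif2ak2 (chr17:78882523-78882822, minus strand): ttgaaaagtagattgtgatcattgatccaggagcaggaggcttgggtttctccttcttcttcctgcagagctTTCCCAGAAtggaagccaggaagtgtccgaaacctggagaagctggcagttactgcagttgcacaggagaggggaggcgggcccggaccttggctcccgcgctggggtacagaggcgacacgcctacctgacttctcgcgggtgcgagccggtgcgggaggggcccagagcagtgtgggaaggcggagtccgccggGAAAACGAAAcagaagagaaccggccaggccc
Mavs (chr2:131233813-131234112, plus strand): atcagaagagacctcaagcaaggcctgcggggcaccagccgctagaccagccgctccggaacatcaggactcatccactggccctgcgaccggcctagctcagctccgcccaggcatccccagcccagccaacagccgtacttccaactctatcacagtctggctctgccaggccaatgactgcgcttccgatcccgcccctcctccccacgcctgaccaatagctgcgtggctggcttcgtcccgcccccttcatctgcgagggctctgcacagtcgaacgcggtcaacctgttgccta
The core was present in 3 of the 5 promoters, those of Ifih1, Ddx58 and Eif2ak2, in each case within the bases after the annotated start, and the Eif2ak2 promoter also held a gamma-activated site upstream. Neither set of letters was found in this window of Mavs or of Tlr3 (chr8:45410331-45410630, minus strand). Among all 32851 promoters in the table, 3.44% held the core and 8.3% the gamma-activated site. Among 16 genes of a list of other interferon-induced genes that had a promoter entry, 6 held the core. These matches describe the letters and are not evidence of binding.

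The libraries were uneven, and this touches every value below. Whole counts could be recovered from the deposited log2 values for 16296 genes, with totals of between 47.7 and 57.1 M (mega) counts for each knockout back library, between 45.7 and 65.6 M for knockout tail and between 66.3 and 67.9 M for control tail. The first and second knockout back libraries stood apart, with no count at all for 28.4% and 37.6% of genes, where the other 7 libraries lacked 5.24% to 10.7%. The second knockout back library had 4 of the 8 sensor genes at 0 counts and the third control tail library had 3. The submitters had also removed a shift between 2 sets of libraries, the third knockout tail with the third knockout back library against the other 7, with no allowance for group. The test therefore carried the library set as a term. Melanocyte markers were high throughout: the recovered count of Tyr, the first enzyme of melanin synthesis, was 117146 to 266050 in knockout back, 224767 to 360135 in knockout tail and 183805 to 285651 in control tail. Spry1 had 2120, 0 and 761 counts in knockout back, 4446, 2082 and 508 in knockout tail and 1915, 1298 and 1587 in control tail, which is no check of a deletion aimed at keratinocytes. Eif2s3y, a Y-linked gene, had 3275, 2543 and 3922 counts in knockout back, 4890, 5677 and 0 in knockout tail and 154, 0 and 9 in control tail, so it moved with genotype, apart from the third knockout tail library. Xist, the transcript of the inactive X, had 1313, 1266 and 2699 counts in knockout back, 5, 19 and 6364 in knockout tail and 5354, 1711 and 4908 in control tail, so all 3 knockout back libraries held both transcripts and the first and second knockout tail libraries almost only Eif2s3y. The part of sex in the results was not tested.

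Levels of different genes are compared as normalised counts per kilobase of annotated exons. In control tail melanocytes the signalling adaptors were the most abundant. Mavs averaged 984 (739 to 1448 over libraries) and Sting1 676 (493 to 818) normalised counts per kilobase. Eif2ak2 at 146 (108 to 181) and Tlr3 at 115 (89.3 to 146) followed, below Sting1 in every library and not separated from each other. Ifih1 (20.2), Zbp1 (20.1), Dhx58 (17.8) and Ddx58 (14.3) came last, all below Tlr3 in range and overlapping one another, with at least 1 library near 0 for each. In control melanocytes the adaptor transcripts were therefore far above those of the RIG-I-like receptors.

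In knockout tail the order began the same way, with Mavs at 1044 (753 to 1514) and Sting1 at 869 (622 to 1049) normalised counts per kilobase. Tlr3 at 332 (174 to 503) lay below Sting1 without overlap. From Tlr3 down, through Eif2ak2 at 277, Ifih1 at 186, Dhx58 at 164 and Ddx58 at 109 to Zbp1 at 90.6, each gene overlapped its neighbour. In knockout back every neighbour in the order overlapped the next. Zbp1 was first at 916 (307 to 1398), beside Mavs at 905 (522 to 1312), and Tlr3 was last at 51.8 (0 to 155).

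**Figure D1:**
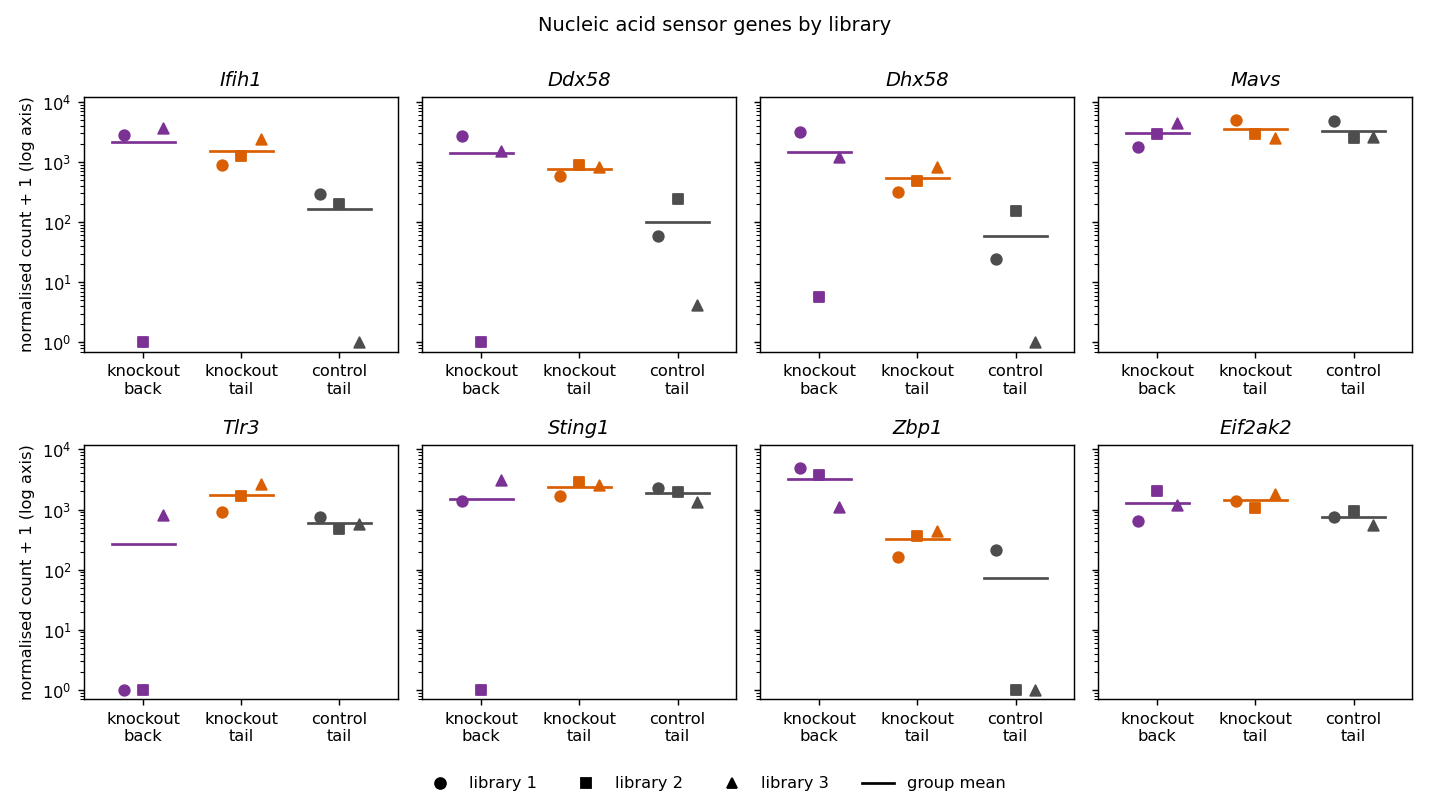
Each panel shows 1 sensor gene, with the normalised count plus 1 of each library on a log axis for knockout back, knockout tail and control tail; marker shape gives the library number and the line the group mean. The second knockout back library sits at 0 for Ifih1, Ddx58, Tlr3 and Sting1, and Mavs lies between 1746 and 5065 in all 9 libraries.

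The RIG-I-like receptors were low in control tail and had higher counts in all 3 knockout tail libraries, a difference that did not pass the test over all genes. Ifih1 (chromosome 2, 62595798 to 62646255, minus strand, ENSMUSG00000026896.14), which detects long double-stranded RNA, had normalised counts of 899, 1239 and 2428 in knockout tail and 291, 203 and 0 in control tail. Every knockout tail library lay above every control tail library, and the means were 1522 ± 803 and 165 ± 149 (SD, n = 3 each). On the log2 scale of the deposited values, which compresses low counts, the difference was 1.47 with a 95% interval of -0.80 to 3.74 (limma, adjusted p = 0.9996 over 16299 genes). In bulk RNA, fewer cells expressing a gene and less RNA of it per cell cannot be told apart.

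Ddx58 (chromosome 4, 40203773 to 40239828, minus strand, ENSMUSG00000040296.15), which detects RNA with a triphosphate end, had 586, 906 and 813 normalised counts in knockout tail and 56.8, 242 and 3.24 in control tail. The groups did not overlap, with means of 768 ± 164 and 101 ± 126 (SD, n = 3 each). The log2 difference was 1.32 (95% interval -0.84 to 3.48, limma, adjusted p = 0.9996). Dhx58 (chromosome 11, 100694884 to 100704271, minus strand, ENSMUSG00000017830.15), which binds double-stranded RNA but lacks the signalling domain of the other two, had 316, 483 and 810.5 normalised counts in knockout tail and 22.9, 151 and 0 in control tail. Again no library of one group reached the other, and the log2 difference was 1.18 (95% interval -0.92 to 3.28, limma, adjusted p = 0.9996).

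In knockout back the RIG-I-like receptors were high in 2 libraries and at or near 0 in the other. Ifih1 had 2838, 0 and 3699 normalised counts, Ddx58 2665, 0 and 1518, and Dhx58 3185, 4.68 and 1208. The second library thus held 4.68 normalised counts of all 3 receptors together, against 8688 in the first and 6425 in the third, and 1801 to 4051 in knockout tail. This left differences from knockout tail of -0.31 for Ifih1, -0.06 for Ddx58 and 0.35 for Dhx58 on the log2 scale (limma, adjusted p = 0.89, 0.98 and 0.86). Against control tail the differences were 1.16, 1.26 and 1.54 for the same genes (limma, adjusted p = 0.51, 0.45 and 0.34). With the third knockout back library as the only one of its group, the estimates were 2.21, 2.15 and 1.60 above control tail. With the set term, such an estimate starts from the third knockout back library minus the third knockout tail library. To this is added the mean of the first and second knockout tail libraries minus that of control tail. It is thus no direct difference from control tail. The arm holds a lone library, whose spread would have to be taken from the other groups. The estimate is therefore given here and below as a value with no test.

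The removed shift was larger for these genes than for most. Its median absolute size over all genes was 0.45 on the log2 scale, against 2.13 for Ifih1, 1.24 for Dhx58 and 1.18 for Ddx58, in each case with the third knockout libraries higher. Within the larger set, where no shift is needed, knockout tail lay 1.68 above control tail for Ifih1, 1.5 for Ddx58 and 1.19 for Dhx58. The highest Ifih1 and Dhx58 of the knockout tail group were in its library 3, which also had the highest summed normalised count of 7 basal keratinocyte markers, 325924 against 36746 and 12718 in the first and second. Over the groups that sum ran from 39208 to 190386 in knockout back, 12718 to 325924 in knockout tail and 39033 to 100246 in control tail. The part of keratinocyte RNA in the sensor values was not tested.

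The 3 receptors varied together over the 9 libraries. Pearson's r on the log2 scale with the shift put back was 0.98 for Ddx58 with Dhx58, 0.95 for Ifih1 with Ddx58 and 0.92 for Ifih1 with Dhx58. These are descriptions over libraries that share the zeros of the second knockout back and the third control tail library. The balance between them varied. Per kilobase, Ifih1 was 0.919 and 2.10 times Ddx58 in the first and the third knockout back library, 1.32, 1.18 and 2.58 times in knockout tail, and 4.43 and 0.722 times in the first and second control tail libraries.

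Mavs, the adaptor that both signalling receptors need, was the steadiest of the group. Mavs (chromosome 2, 131234063 to 131248025, plus strand, ENSMUSG00000037523.13) had 1746, 2946 and 4389 normalised counts in knockout back, 5065, 2887 and 2520.4 in knockout tail and 4842, 2473 and 2559 in control tail. All 3 groups overlapped, and no library fell to 0. The log2 difference between knockout tail and control tail was 0.03, with an interval of -1.02 to 1.08, so the data leave room for a change of about 1 on the log2 scale in either direction (limma, adjusted p = 0.9996). Knockout back differed from knockout tail by -0.20 (95% interval -1.19 to 0.79, adjusted p = 0.84) and from control tail by -0.17 (95% interval -1.22 to 0.88, adjusted p = 0.85). Its correlation with Ifih1, Ddx58 and Dhx58 was 0.01, -0.18 and -0.30.

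Tlr3, the endosomal receptor, was lowest in knockout back. Tlr3 (chromosome 8, 45395665 to 45411080, minus strand, ENSMUSG00000031639.12) had 0, 0 and 809 normalised counts in knockout back, 908, 1664 and 2618 in knockout tail and 762, 465 and 573 in control tail. Every knockout back library lay below every knockout tail library, and every knockout tail library above every control tail library. The difference of knockout back from knockout tail was -2.27 ± 0.44 (SE) on the log2 scale, with an interval of -3.30 to -1.25, and missed the threshold of 0.05 (limma, adjusted p = 0.075). That from control tail was -1.79 ± 0.47 (95% interval -2.88 to -0.71, adjusted p = 0.072), although the third knockout back library, at 809, exceeded all 3 control tail libraries.

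The first and second knockout back libraries, in which Tlr3 was at 0, are also those with the most genes at 0. Without both, the third knockout back library lay 1.30 below the third knockout tail library on the log2 scale (-1.30). The estimate against control tail, formed through the third knockout tail library, was -0.57. Within the larger library set alone the difference from knockout tail was -2.76 (adjusted p = 0.018), and the difference from control tail -2.04 (adjusted p = 0.019). Between knockout tail and control tail the log2 difference was 0.48 (95% interval -0.61 to 1.57, limma, adjusted p = 0.9996). Group means were 270 ± 467 in knockout back, 1730.0 ± 857 in knockout tail and 600.0 ± 150.2 in control tail (SD, n = 3 each).

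Sting1, the adaptor of cytosolic DNA sensing (ENSMUSG00000024349.10), was abundant in every tail library. It had 1409, 0 and 3114 normalised counts in knockout back, 1706, 2876 and 2561 in knockout tail and 2243, 1963 and 1351 in control tail. Knockout tail and control tail overlapped, with a log2 difference of -0.13 (95% interval -2.06 to 1.79, limma, adjusted p = 0.9996). Knockout back had both the highest and the lowest library of the 9. Its log2 differences were -1.24 from knockout tail (95% interval -3.05 to 0.58, adjusted p = 0.44) and -1.37 from control tail (95% interval -3.29 to 0.56, adjusted p = 0.35). Without the first and second knockout back libraries the estimates turned to 0.24 from knockout tail and 0.48 from control tail. Both rest on the third knockout back library set against the third knockout tail library. Sting1 and Tlr3 had a correlation of 0.72 over the 9 libraries.

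Zbp1, the Z-nucleic acid sensor, was the member whose difference passed the test: it was higher in knockout back than in control tail. Zbp1 (chromosome 2, 173206612 to 173218923, minus strand, ENSMUSG00000027514.14) had 4935, 3679 and 1085 normalised counts in knockout back, 161, 356 and 442 in knockout tail and 213, 0 and 0 in control tail. Every knockout back library exceeded all 6 tail libraries. The highest values were in the first and second knockout back libraries, in which so many other genes were at 0. Means were 3233 ± 1964 in knockout back, 320 ± 144 in knockout tail and 71.0 ± 123 in control tail (SD, n = 3 each). The log2 difference of knockout back from control tail was 3.47 ± 0.61 (SE), with a 95% interval of 2.06 to 4.88 (limma, adjusted p = 0.037). That from knockout tail was 2.18 ± 0.57 (95% interval 0.85 to 3.52, adjusted p = 0.12), and that of knockout tail from control tail 1.29 ± 0.61 (95% interval -0.13 to 2.70, adjusted p = 0.94). Neither of these passed, and knockout tail and control tail overlapped through the first control tail library.

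The call for Zbp1 was near the threshold. The adjusted p was 0.077, 0.13 and 0.11 without the first, the second or the third control tail library, 0.080 and 0.063 without the first or second knockout back library, and 0.062 and 0.064 without the first or second knockout tail library. The difference kept its direction in all 23 alternative settings and passed in 10. Without both the first and second knockout back libraries the estimate, formed through the third knockout tail library, was 1.77. The third knockout back library lay 0.83 above the third knockout tail library. The difference from knockout tail, in turn, passed within the larger library set alone (2.86, adjusted p = 0.031). Zbp1 is also expressed in immune cells, and some markers of those cells were higher in knockout back. The summed normalised count of 8 Langerhans and myeloid markers was 7348, 19982 and 26907 in knockout back, 1607, 811 and 12024 in knockout tail and 1121, 2613 and 846 in control tail. Among them H2-Aa, a class II antigen-presenting chain, had 2743, 2701 and 3769 counts in knockout back, 0, 0 and 1108 in knockout tail and 0, 6 and 0 in control tail. Ptprc, the pan-leukocyte marker CD45, had 0, 227 and 21 counts in knockout back, 5, 6 and 0 in knockout tail and 16, 10 and 0 in control tail. Like H2-Aa, and unlike Ptprc, Cd74 and H2-Ab1 were higher in every knockout back than in every control tail library. Cd74 had 1541, 3786 and 12775 counts in knockout back, 132, 8 and 4443 in knockout tail and 5, 162 and 3 in control tail. H2-Ab1 had 2212, 5065 and 4903, then 5, 4 and 1954, then 102, 0 and 0 in the same order. Ptprc, H2-Eb1, Csf1r, Lyz2 and Epcam did not follow the groups. H2-Eb1 had 0, 0 and 3110, then 0, 85 and 879, then 0, 213 and 0 in that order. Csf1r, a macrophage receptor, had 27, 25 and 20 counts in knockout back, 19, 26 and 426 in knockout tail and 27, 15 and 21 in control tail. Lyz2, a myeloid lysozyme, had 117, 4594 and 130 counts in knockout back, 1125, 568 and 326 in knockout tail and 461, 110 and 146 in control tail. Epcam, also made by epithelial cells, had 183, 689 and 2732 counts in knockout back, 705, 263 and 1264 in knockout tail and 810, 2642 and 875 in control tail. Cd207 and Itgax were not analysed here. The part of immune cell RNA in the Zbp1 values was not tested.

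Eif2ak2, the translation-halting kinase PKR, was present in every library. Eif2ak2 (chromosome 17, 78852564 to 78882573, minus strand, ENSMUSG00000024079.4) had 633, 2039.5 and 1195 normalised counts in knockout back, 1402, 1040.2 and 1811 in knockout tail and 753, 926 and 554 in control tail. The lowest knockout tail library lay just above the highest control tail library, while knockout back spanned both. Means were 1289 ± 708 in knockout back, 1417 ± 385 in knockout tail and 744 ± 186 in control tail (SD, n = 3 each). The log2 difference was 0.58 between knockout tail and control tail (95% interval -0.48 to 1.63, limma, adjusted p = 0.9996), -0.17 between knockout back and knockout tail (95% interval -1.17 to 0.83, adjusted p = 0.87) and 0.41 between knockout back and control tail (95% interval -0.65 to 1.46, adjusted p = 0.63). Annotated genes on the opposite strand overlap Eif2ak2, Tlr3 and Dhx58. The strand setting of the counting is not given in the sources used here, so their reads could not be told apart.

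**Figure D2:**
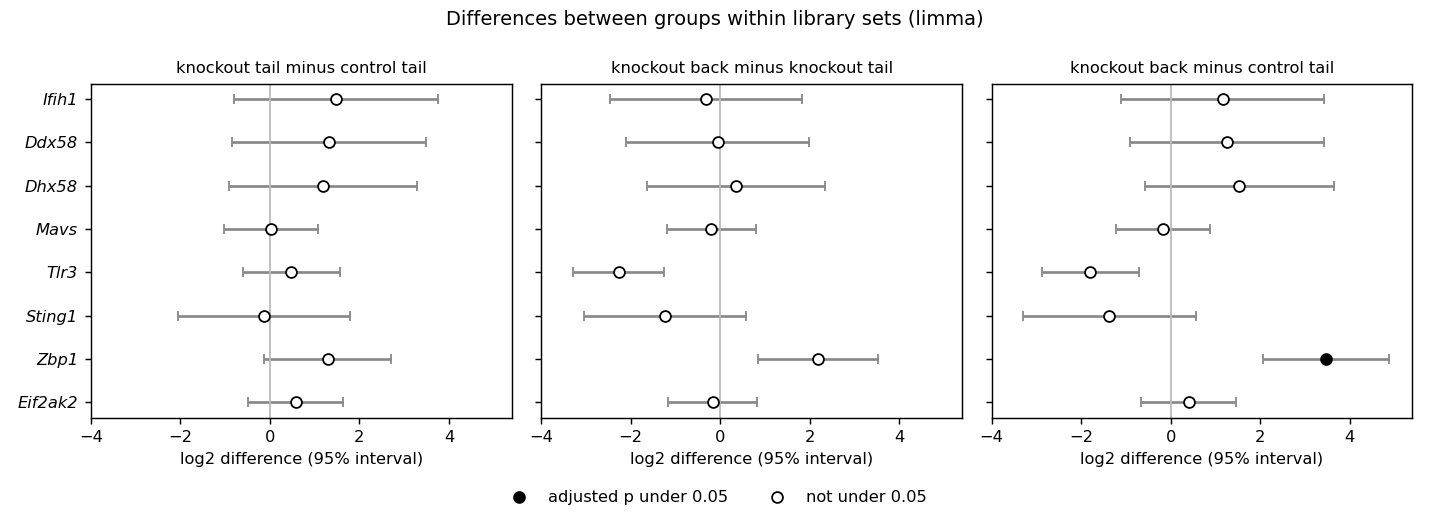
Points show the log2 difference of each sensor gene in 3 comparisons from the limma test with library set as a term, bars its 95% interval, and filled points an adjusted p under 0.05. Zbp1 between knockout back and control tail, at 3.47, is the filled point.

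Across the 8 genes, the comparison of knockout tail with control tail asks how melanocytes of one body site differ when the keratinocytes around them are the target of Spry1 deletion. No member passed the test and none had an unadjusted p under 0.05, against 0.0614% of all genes passing (10 genes), and 5.7% with an unadjusted p under 0.05. With group as the only term, limma called 0 genes in this comparison. The difference was positive for 7 of the 8 members, against 42.5% of all genes, and the members' median was 0.88 against -0.07 over all genes. Sting1, the exception at -0.13, was at 0.24 within the larger library set alone. For 5 members (Ifih1, Ddx58, Dhx58, Tlr3 and Eif2ak2) every knockout tail library lay above every control tail library, as it did for 9.7% of genes with recovered counts. The direction held in all 23 alternative settings for Ifih1, Ddx58, Dhx58, Zbp1 and Eif2ak2, and in 20, 18 and 16 for Tlr3, Mavs and Sting1.

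The comparison of knockout back with knockout tail sets body sites of one genotype side by side. None of the 8 members passed, against 0.436% of all genes, while 2 had an unadjusted p under 0.05 (Zbp1 and Tlr3), against 18.2% of all genes. The difference was positive for 2 members, against 36.7% of all genes. Zbp1 lay above without overlap, as did 4.55% of genes, and Tlr3 below, as did 10.4%. The members' median was -0.18, equal to that of all genes at this precision. Between knockout back and control tail 1 of 8 members, Zbp1, passed, against 3.34% of all genes in either direction and 1.05% higher. An unadjusted p under 0.05 was found for 2 members (Zbp1 and Tlr3), against 24.6% of all genes, and a positive difference for 5, against 33.9%. Zbp1 was also the member with no overlap there, as were 7.41% of genes in that direction, and the members' median was 0.78 against -0.26 over all genes. The 3 comparisons share libraries and are not independent of one another.

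Each sensor gene was set beside the others of 12887 genes with a mean normalised count of at least 100, and the most alike over 9 libraries are given as a description. The genes most like Ifih1 were Tap1 (r = 0.97), which carries peptides to class I molecules, Ints2 (0.97) and Herc6 (0.96), an interferon-induced ligase. Ddx58 and Dhx58 were each other's nearest gene (0.98), followed by Zswim9 for both (0.96 and 0.96), then Slc4a8 for Ddx58 (0.95) and Vsig10l for Dhx58 (0.96). Tap1 had 4964, 4 and 8860 counts in knockout back, 1627, 1055 and 2973 in knockout tail and 700, 324 and 111 in control tail, which shows the same empty second knockout back library. Tlr3 was nearest to Tbc1d24, AI597479 and Dck (0.99 each), and Tbc1d24 was likewise at 0 in the first and second knockout back libraries. Sting1 was nearest to Lypla1, Shc4 and Tent5a (0.99 each), all at 0 in the second knockout back library.

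For Zbp1 the most alike genes were Rarb (0.99), Agrn (0.98) and Idi1 (0.97). Rarb, a retinoic acid receptor, had 9834, 8184 and 6625 counts in knockout back, 4616, 5267 and 3823 in knockout tail and 5181, 3204 and 3735 in control tail. In knockout back Agrn had 9898, 8585 and 4185 counts and Idi1 20450, 23293 and 10760. Like Zbp1, these genes were highest in the first and second knockout back libraries, those with the most genes at 0. Mavs was nearest to Phlpp1 (0.90), Cpd (0.89) and Man2a2 (0.88), the lowest best matches of the 8. Eif2ak2 was nearest to Sesn2 (0.96), Pigg (0.95) and Pbxip1 (0.95). Among the sensors, Zbp1 ran opposite to Tlr3 (-0.63) and Sting1 (-0.47), and Eif2ak2 had no correlation above 0.30.

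**Figure D3:**
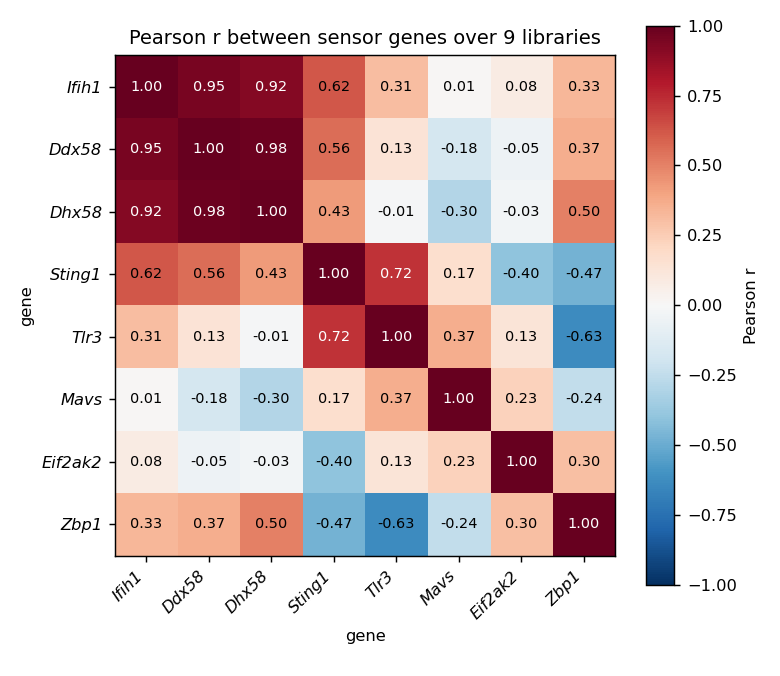
The grid gives Pearson's r between sensor genes over the 9 libraries, on the log2 scale with the set shift put back, from blue (-1) to red (1). Ifih1, Ddx58 and Dhx58 form a block of 0.92 to 0.98, and Zbp1 is negative with Tlr3 (-0.63) and Sting1 (-0.47).

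Genes around the sensors were read from lists of their partners. Of 11 other sensors in the table, Oas1a, whose product makes the second messenger that activates RNase L, rose in knockout tail against control tail (difference 3.25 on the log2 scale, limma, adjusted p = 0.045). It had 8196, 10097 and 5327 counts in knockout back, 2376, 3139 and 503 in knockout tail and 0, 4 and 4 in control tail, so control tail was near 0 in all libraries and the groups did not overlap. Oas1a has near-identical copies, so reads may be split between them. The call in knockout tail was lost when any one tail library or the third knockout back library was left out, with adjusted p up to 0.37. In knockout back against control tail Oas1a (5.39, adjusted p = 0.0014) and Ifit1 (4.64, adjusted p = 0.014), which binds RNA without a methylated cap, both rose. Oas1a passed in all 9 fits that leave out 1 library and Ifit1 in 7, being lost without the second or the third control tail library (up to 0.069). The medians of this list were -0.02 for knockout tail against control tail and -0.56 for knockout back against control tail. Between knockout back and knockout tail no member of this list passed. Oas1a differed by 2.14 (adjusted p = 0.053) and Ddx41, a proposed DNA sensor, by -1.79 (adjusted p = 0.27).

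The adaptors, kinases and transcription factors downstream (18 genes) had 1 call, Irf7, the interferon-induced factor that amplifies interferon transcription. Irf7 rose in knockout back against control tail, where 3.34% of all genes passed, by 3.09 (limma, adjusted p = 0.033). It had 10298, 3478 and 10140 counts in knockout back and 1015, 306 and 180 in control tail. Irf7 passed in 3 of the 9 fits that leave out 1 library, those without the third library of either knockout group or the second of knockout back, with adjusted p from 0.017 to 0.12. In knockout tail it had 2336, 3422 and 6714 counts and differed from control tail by 2.06 (adjusted p = 0.35), beside -0.95 for Irf5 (adjusted p = 0.62). Ticam1, the adaptor of Tlr3, shared the empty knockout back libraries of its receptor: it had 0, 0 and 381 counts in knockout back and 1083, 687 and 520 in knockout tail (difference -1.60, adjusted p = 0.15). Ikbke, a kinase that activates IRF3, had 0, 8 and 2410 counts in knockout back and 4295, 3093 and 2772 in knockout tail (difference -2.56, adjusted p = 0.12). The list's medians were 0.23 for knockout tail against control tail, -0.15 for knockout back against knockout tail and 0.05 for knockout back against control tail.

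Among 19 modifiers and regulators, Usp18, which removes ISG15 and restrains interferon receptor signalling, rose in knockout tail against control tail (3.12, limma, adjusted p = 0.043) and in knockout back against control tail (4.25, adjusted p = 0.0014). Its counts were 11311, 11030 and 9646 in knockout back, 4871, 6981 and 4463 in knockout tail and 484, 231 and 222 in control tail, 3 levels without overlap. The call in knockout back held in all 9 fits that leave out 1 library, and that in knockout tail in the 2 without the first or the second knockout back library. Nlrc5, the activator of class I genes and also reported to act on RIG-I-like receptors, rose in knockout back against control tail (2.50, adjusted p = 0.028), with 1165, 836 and 1133 counts in knockout back, 0, 217 and 71 in knockout tail and 4, 4 and 0 in control tail. It was lost without any one control tail library or the first knockout back library (adjusted p up to 0.11). Nlrx1, a mitochondrial protein reported to restrain Mavs, had 0, 0 and 254 counts in knockout back and 3225, 2071 and 2024 in knockout tail (difference -2.95, adjusted p = 0.072). The difference of Nlrc5 between these groups was 1.97 (adjusted p = 0.072).

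Of the 12 death partners of Zbp1 and Tlr3, 2 passed in knockout back against control tail, against 3.34% of all genes. They moved in opposite directions. Mlkl, the executioner of necroptosis, rose by 2.35 (limma, adjusted p = 0.028) and had 4119, 2323 and 3524 counts in knockout back, 833, 911 and 829 in knockout tail and 349, 468 and 431 in control tail. Ripk3, the kinase that Zbp1 and Tlr3 signalling engage and that activates MLKL, fell by 2.41 (adjusted p = 0.047), with 4, 8 and 725 counts in knockout back, 1756, 1292 and 1247 in knockout tail and 2079, 1967 and 1445 in control tail. Mlkl was high in all 3 knockout back libraries, whereas Ripk3 was near 0 in the first and second and at 725 in the third. Mlkl passed in 3 of the 9 fits that leave out 1 library (adjusted p from 0.013 to 0.11) and Ripk3 in 2 (from 0.0095 to 0.15). Without the first and second knockout back libraries the estimates, formed through the third knockout tail library, were 2.11 and -0.90. The summed Langerhans and myeloid markers given beside Zbp1 were also higher in each knockout back library than in control tail. Within knockout back the sum was lowest in the first library, where the counts of both Mlkl and Zbp1 were highest. That library also had no count at all for 28.4% of genes, so its order among the libraries is only a description. The part of immune cell RNA in the Mlkl values was not tested. None of the list passed between knockout back and knockout tail, with the largest differences at -1.98 for Casp8 (adjusted p = 0.21) and -1.93 for Ripk3 (adjusted p = 0.10). In knockout tail against control tail Mlkl differed by 0.68 and Birc3, an inhibitor of apoptosis, by 0.58 (adjusted p = 0.9996 for both).

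No gene passed in any comparison among the 12 trafficking partners, the 14 nucleases and editing enzymes, the 6 interferon receptors or the 13 genes of eIF2 kinases and the integrated stress response. Transcripts of the interferon ligands listed were not analysed here. For knockout tail against control tail the medians of these lists were 0.26, -0.00059, 0.16 and -0.02. The largest differences there included Sec24c, a coat protein of transport from the reticulum (1.15, limma, adjusted p = 0.44), Sec24d (0.96), Rnaseh2b and Rnaseh2a, subunits of the enzyme that removes RNA from DNA (-0.83 and -0.66), Ifngr1 (-0.84), Ifnar1 (0.65), Sesn2, a stress-induced regulator of growth signalling (1.58), and Ppp1r15b, a phosphatase subunit that reverses eIF2 phosphorylation (0.85, adjusted p = 0.90), with an adjusted p of 0.9996 where none is given. Between knockout back and knockout tail they included Tmem203, a reticulum protein reported to bind STING (-2.17, adjusted p = 0.14), Sec24d (-0.90), Rnaseh2b (-2.0, adjusted p = 0.25), Endou, an endoribonuclease (-1.51, adjusted p = 0.16), Ifngr2 (-0.77), Ifnar2 (0.54), Asns, asparagine synthetase (-1.99, adjusted p = 0.22), and Ppp1r15b (-0.97, adjusted p = 0.21). In knockout back against control tail they included Tmem203 (-2.97, adjusted p = 0.051), the adaptor subunit gene Ap3b1 (-0.83), Rnaseh2b (-2.82, adjusted p = 0.0999), Rnaseh2a (-1.90), Ifnar2 (0.95), Ifngr1 (-0.82), Asns (-2.25) and Sesn2 (1.24).

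A list of 21 other interferon-induced genes gives a measure beside which the sensors can be set. All 21 had a positive difference in knockout tail against control tail, against 42.5% of all genes, with a median of 1.46. Of the list 2 genes rose, against 0.0429% of all genes. They were Ifit3 (3.45, limma, adjusted p = 0.045) and Ifit3b (2.79, adjusted p = 0.048), near-identical neighbours whose reads may be split. Ifit3 passed in 2 of 9 fits that leave out 1 library and Ifit3b in 1 (adjusted p up to 0.37 for both). In knockout back against control tail 13 of the list rose, against 1.05% of all genes, and the list's median was 2.23. Among those that rose were Oasl2 (4.24, limma, adjusted p = 0.025), Parp14 (3.47, adjusted p = 0.030) and Ifit3 (3.43, adjusted p = 0.0086). With 1 library left out Ifit3 passed in 8 of 9 fits, Oasl2 in 4 and Parp14 in 2. None passed between knockout back and knockout tail, and the median was 0.55, with Parp14 at 3.11 (adjusted p = 0.060) and Oasl2 at 1.98 (adjusted p = 0.15). The interferon-induced sensors Ifih1, Ddx58, Dhx58 and Zbp1 had differences of 1.18 to 1.47 in knockout tail against control tail, and Eif2ak2 0.58. The difference between the sensors and this list was not tested.

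**Figure D4:**
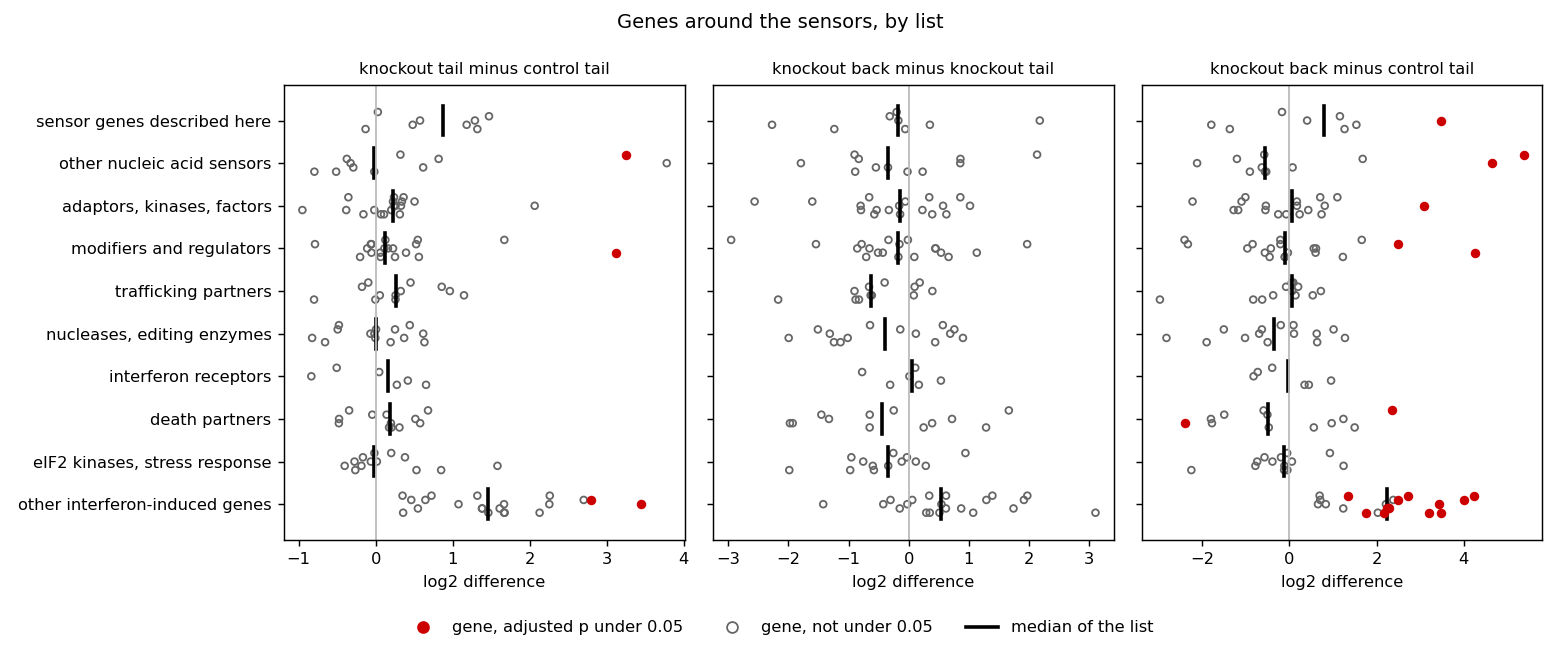
Each point is the log2 difference of 1 gene in 3 comparisons, by list, with red points at an adjusted p under 0.05 and a black bar at each list's median. The interferon-induced genes at the bottom lie to the right of 0 in both comparisons with control tail, with medians of 1.46 and 2.23, and the sensors described here have medians of 0.88 and 0.78 there.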

How the data were processed

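The analysed file was a table of deposited log2 values for 16299 genes in 9 libraries, made by the authors with a low-input SMART-Seq v4 kit and paired-end Illumina sequencing, per the labels' protocols. The submitters' processing notes name DESeq2 and GRCm38 without saying where they were used. For the aligner, the counter and the strand setting, the choice is not given in the sources used here. From the values themselves could be read a variance-stabilising curve with 7.98 at 0 counts, and an equality of means (to 7.14e-09 in every gene) between the third knockout tail with the third knockout back library and the other 7, so a shift between these sets had been removed. Any other of the 255 possible splits left a gap of at least 1.50 in some gene. Undoing curve and shift gave whole counts for 16296 genes, within 0.004 of a whole number; the other 3 are Dct, Pmel and Tyrp1. Normalised counts are recovered counts over the library's size factor and hold no shift removal. No counting intervals are given, since libraries of a group differed by far more than counting error at these totals.

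Differences came from limma 3.58.1 (R 4.3.3) fitted to the deposited table, 9 libraries together, with terms for group and library set, trend and robust moderation, and Benjamini-Hochberg adjustment over all genes. The set term makes the estimates independent of the removed shift. The smaller set holds no control tail library, so the set term is estimated from both knockout groups. Estimates of knockout tail against control tail therefore also depend on the knockout back libraries, including those rich in zeros. Both the recovery and the test were run on simulated data. The simulated test gave every gene the same spread, smaller than the median spread here, and had no libraries rich in zeros. It therefore cannot show how the test performs on these libraries. Named genes are the 8 members and, per list and comparison, those past the threshold (at most 4 in each direction) or otherwise the 2 with the largest difference at a mean normalised count of at least 100. Members, lists and alternatives were chosen with earlier results of these data known. Exon lengths and coordinates are from GENCODE vM21, and promoters from RefSeq. Tables were handled with Python 3.11.15. Same-numbered libraries are not said to be related, so no replicate block was used. Their deviations from the group means did not run together, but the third knockout libraries cannot decide this, since the mean of their set was fixed.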

Additional observations from a re-analysis of the deposited data

How the results depend on the processing

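Calls depended on few libraries. Between knockout tail and control tail limma called 10 genes, and 0 under the 7 libraries of the larger set, group as the only term, limma-voom on recovered counts (also with TMM factors or group only), log2 of the normalised count plus 1 or 16, no trend, or without the first and second knockout back libraries; 6 were called with group only and the shift put back, and 0 to 8 when 1 library was left out. No member was called there in any setting.

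Between knockout back and knockout tail 71 genes were called, against 1637 in the 7 libraries, 244 with group only, 31 with the shift put back, 202 with limma-voom, 199 with TMM factors, 168 with limma-voom and group only, 189 with a pseudocount of 1, 1 without the first and second knockout back libraries, and 2 to 1642 with 1 library left out. The 0 called members became 2 (Zbp1 and Tlr3) in the 7 libraries, 1 (Tlr3) with group only and 0 to 2 with 1 library left out; both were called without KB replicate 3 and without KO replicate 3.

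Between knockout back and control tail 545 genes were called, against 2371 in the 7 libraries, 163 with group only, 217 with the shift put back, 317 with limma-voom and group only, 8 without the first and second knockout back libraries, and 26 to 2385 with 1 library left out. The 1 called member, Zbp1, became 2 (with Tlr3) in the 7 libraries and 0 with group only (adjusted p = 0.053), limma-voom and group only (0.060), a pseudocount of 1 (0.069) or 16 (0.054), and without the first and second knockout back libraries, and was 0 to 2 with 1 library left out.

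With the replicate number as a block the calls were 0 genes for knockout tail against control tail, 3 for knockout back against knockout tail and 5 for knockout back against control tail, and Zbp1 was not called in the last (adjusted p = 0.21). The correlation of deviations between same-numbered libraries ran from -0.70 to 0.076, so the numbers were not taken as pairs. The cause of these shifts in the counts of calls was not tested. Leaving out the third library of either knockout group raised both counts that involve knockout back, while leaving out any other library left them equal or lower. Without the first and second knockout back libraries the lone one left is assumed to vary like the other groups. Genes at 0 in the first and second knockout back libraries limit what can be read from low values there. The part of this unevenness in high values of the same libraries, such as those of Zbp1 and Parp14, was not tested.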
